A study of Mus musculus with 18 samples.

Results

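Globins and red cell effector genes were followed across 18 libraries of mouse bone marrow progenitors. The 10 genes were picked by name from the 29717 gene symbols of the deposited count tables: the alpha-globins Hba-a1 and Hba-a2, the beta-globins Hbb-bs and Hbb-bt, Slc4a1, Alas2, Car1, Car2, Mfsd2b and Apoe. All 10 were found in the tables, and they are described per library, because a few red cells sorted along with the progenitors and a progenitor that has begun to transcribe red cell genes would both raise them. In bulk libraries like these, fewer cells of a type and less RNA per cell cannot be told apart.

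Every mouse was of the BALB/c strain, and all cells were lineage-negative progenitors sorted from bone marrow directly into lysis buffer. Libraries were made by CEL-Seq2, which reads the 3′ end of each polyadenylated RNA and tags each captured molecule with a random barcode, the unique molecular identifier (UMI). Controls carried wild-type (wt) Dnmt1. Mutants carried a Dnmt1 change that the series describes as a hypomorphic missense mutation and the genotype field writes as dnmt1-/-. Dnmt1 encodes the methyltransferase that restores DNA methylation after replication. No Cre, transgene or treatment is named for either genotype, and the labels state neither age nor sex. There were 3 control and 3 mutant libraries labelled HSC (in common usage haematopoietic stem cells), 2 and 2 labelled MPP1 and 4 and 4 labelled MPP4 (in common usage early and lymphoid-primed multipotent progenitors). Sequencing batches A, B and C each held as many control as mutant libraries. Column names carry 8 ID numbers, and 6 of them recur across populations. Of these, 1 links HSC control 1 with MPP4 control 1. The next links HSC control 2 with MPP1 control 1 and MPP4 control 3, and another HSC control 3 with MPP1 control 2 and MPP4 control 4. Among mutants, 1 number links HSC mutant 1 with MPP4 mutant 1, another HSC mutant 2 with MPP1 mutant 2 and MPP4 mutant 4, and the last links HSC mutant 3 to mutant 1 of MPP1 and mutant 3 of MPP4. MPP4 control 2 and MPP4 mutant 2 each carry a number found nowhere else. The labels do not say that an ID number is an animal, so the p-values speak only of how much these libraries vary, part of which may be technical.

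Red cells arise from stem cells through progenitors that first switch on the transcription factors Gata1 and Klf1 and the erythropoietin receptor, and only later fill with haemoglobin. Alpha- and beta-globin chains form the haemoglobin tetramer, Alas2 catalyses the first and rate-limiting step of haem synthesis in red cells, and Slc4a1 is band 3, the chloride-bicarbonate exchanger that anchors the red cell skeleton. Car1 and Car2 are carbonic anhydrases, which interconvert carbon dioxide and bicarbonate. Car1 is among the first erythroid enzymes, whereas Car2 is also made by many other blood cells. Mfsd2b exports sphingosine-1-phosphate from red cells and platelets. Apoe, apolipoprotein E, carries lipids and is made by macrophages and by stem cells.

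The genes lie on 4 autosomes and the X chromosome (GENCODE vM21 gene models on GRCm38, the assembly called mm10). Hba-a1 (chr11:32283511-32284465) and Hba-a2 (chr11:32296489-32297298) sit side by side on the plus strand, and Slc4a1 (chr11:102348824-102366203, minus strand) is on the same chromosome. Hbb-bt (chr7:103812524-103813996) and Hbb-bs (chr7:103826534-103828096) are neighbours on the minus strand of chromosome 7, which also holds Apoe (chr7:19696109-19699188). Car1 (chr3:14766216-14808368) and Car2 (chr3:14886273-14900770) are neighbours on opposite strands, Mfsd2b is at chr12:4862440-4874359 and Alas2 at chrX:150547375-150570638. The Alas2 gene model overlaps Apex2 and Mir3620 on the other strand, and that of Car1 overlaps Gm16399 on its own strand. How the counting treated strand is not given in the sources used here.

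Promoter windows are shown as a description of the genes. Any part of their sequence in the levels reported here was not tested. RefSeq windows (build GRCm38.p6) were matched by symbol for 7 of the 10 genes. The 150 bases before the start site are given 5′ to 3′ on the gene's strand for Hba-a1 (chr11:32283522-32283671, plus), Hbb-bs (chr7:103827929-103828078, minus), Hbb-bt (chr7:103813924-103814073, minus), Alas2 (chrX:150547267-150547416, plus) and Mfsd2b (chr12:4874360-4874509, minus). Capitals mark any match, on either strand, to GATAA (the core of sites for GATA factors), to CACCC (the box read by factors of the Klf1 type), to CCAAT (a common promoter box) or to TATAA (the core of the TATA box), and matches may overlap.
Hba-a1: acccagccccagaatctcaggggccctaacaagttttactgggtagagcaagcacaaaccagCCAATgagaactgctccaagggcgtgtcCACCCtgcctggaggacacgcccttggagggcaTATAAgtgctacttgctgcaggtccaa
Hbb-bs: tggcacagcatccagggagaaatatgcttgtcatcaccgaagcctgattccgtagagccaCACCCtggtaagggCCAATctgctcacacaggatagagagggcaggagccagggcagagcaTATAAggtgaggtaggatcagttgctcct
Hbb-bt: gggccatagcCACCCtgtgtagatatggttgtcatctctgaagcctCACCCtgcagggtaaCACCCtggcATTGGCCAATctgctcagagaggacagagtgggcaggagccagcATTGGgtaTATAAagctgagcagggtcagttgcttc
Alas2: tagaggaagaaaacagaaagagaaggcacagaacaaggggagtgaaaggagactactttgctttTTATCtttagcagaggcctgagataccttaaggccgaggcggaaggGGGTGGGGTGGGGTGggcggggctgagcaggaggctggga
Mfsd2b: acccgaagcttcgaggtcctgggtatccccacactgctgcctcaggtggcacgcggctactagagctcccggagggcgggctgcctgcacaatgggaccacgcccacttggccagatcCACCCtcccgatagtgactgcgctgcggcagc
The 3 globin windows each held TATAA, 27 bases before the start in Hba-a1, 29 in Hbb-bs and 28 in Hbb-bt, with CCAAT and CACCC further upstream. Alas2 had no TATAA or CCAAT in its window but 1 GATAA match on the other strand, beginning 86 bases before the start, and 3 CACCC matches on the other strand, 40, 35 and 30 bases before it. Mfsd2b had a CACCC match 32 bases before the start and none of the other motifs. Apoe had more than 1 window, and the window at the start of the GENCODE gene model held none of the 4 motifs. The window of the start site at chr7:19698398 held 3 CACCC matches, and that of the site at chr7:19698621 held 2 TATAA matches. Among all 32851 windows of that length, 13.3% held GATAA, 37.4% CACCC, 24.5% CCAAT and 14.2% TATAA. These matches are letters in the reference strain's sequence, not measured binding.

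Gene pairs with near-identical transcripts limit what the counts can split. Over 538 aligned bases, the longest protein-coding transcripts of Hba-a1 and Hba-a2 differed at 1 position, and their promoters matched at 147 of 147 aligned bases, so the division of counts between them is uncertain. Hbb-bs and Hbb-bt transcripts were 92.8% identical over 624 aligned bases and 81.5% identical over the last 200 of them, where CEL-Seq2 reads lie. BALB/c mice carry another beta-globin haplotype than the reference strain, so the division between Hbb-bs and Hbb-bt is uncertain as well, and the sums of each pair are firmer than the single genes.

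Library totals ran from 354642 to 1943562 counts, with a median of 745850.5. A deposited value of 36909 is the ceiling of the correction for molecules that share a UMI. It was reached by Hba-a1 in MPP4 mutant 2, where the true number may be higher. Dnmt1 transcript was found in every library, at 100.2 to 290 CPM (a gene's count as parts per 10 to the power 6 of its library total) in HSC controls and 109 to 336 CPM in HSC mutants, and since a missense change need not alter it, this checks no label. The stem cell gene Procr had 39 to 102 counts in the HSC libraries (42.2 to 110 CPM). It stood at 46.8 to 81.3 CPM in MPP1, within the HSC range, and at 2.74 to 38.8 CPM in MPP4. The 10-gene stem cell list stood at 1072 CPM in HSC mutant 1, below the 1896 to 3262 CPM of the other HSC libraries. The MPP4 marker Flt3 had 8 to 46 counts in HSC and 100 to 1143 in MPP4. The 12-gene B cell list stood at 35700 CPM in HSC control 1 and 11864 CPM in MPP4 mutant 3, against 25.4 to 2351 CPM elsewhere.

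Globin transcripts were concentrated in 4 of the 18 libraries. HSC mutant 1, MPP1 control 2, MPP4 control 4 and MPP4 mutant 2 together held 99.1% of all globin counts. The 4 globins summed to 10478 CPM in HSC mutant 1, 31564 CPM in MPP1 control 2, 29220 CPM in MPP4 control 4 and 186056 CPM in MPP4 mutant 2. Those are 1.05% (95% Wilson interval 1.03 to 1.07), 3.16% (3.11 to 3.20), 2.92% and at least 18.6% of each library's counts. In the other 14 libraries the sum ran from 16.9 to 321 CPM, with a median of 64.0 CPM and 6 to 537 counts. Intervals cover counting error only.

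In HSC controls 1 to 3, Hba-a1 had 24, 10 and 2 counts, and in HSC mutants 1 to 3 it had 4313, 25 and 9. MPP1 controls 1 and 2 had 14 and 5678 counts of Hba-a1, and MPP1 mutants 1 and 2 had 4 and 23. MPP4 controls 1 to 4 had 36, 254, 37 and 4134, and MPP4 mutants 1 to 4 had 29, at least 36909, 2 and 130. Each population thus had 1 or 2 libraries far above the rest, and the genotypes overlapped in all 3 populations. Hba-a2 followed with 3131 counts in HSC mutant 1, 4418 in MPP1 control 2, 3131 in MPP4 control 4 and 27477 in MPP4 mutant 2, and with 2.51 to 82.2 CPM elsewhere.

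Beta-globin showed the same 4 libraries. Hbb-bs counts were 16, 4 and 1 in HSC controls, 3964, 18 and 0 in HSC mutants, 4 and 4707 in MPP1 controls and 0 and 25 in MPP1 mutants. In MPP4 they were 27, 97, 15 and 2468 in controls and 20, 26731, 4 and 98 in mutants. Hbb-bt reached 1284, 2067, 1194 and 16277 counts in the 4 libraries and 0 to 43 in the others. The alpha chains made up 58.7% of globin counts in HSC mutant 1, 59.8% in MPP1 control 2, 66.5% in MPP4 control 4 and 59.95% in MPP4 mutant 2, the last with Hba-a1 at its ceiling. Embryonic and other adult globin genes were nearly absent: 6 of the 9 listed genes were in the tables, and their sum was 3, 1, 3 and 23 counts in the 4 libraries and 0 in each of the other 14.

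High globin was shared by some, but not all, libraries of 1 ID number. The number shared by MPP1 control 2, MPP4 control 4 and HSC control 3 gave 16870, 10927 and 6 globin counts in them. HSC mutant 1 had 12692 globin counts, and MPP4 mutant 1, of the same number, had 64. The 4 libraries came from batches A, B and C (HSC mutant 1 from A, MPP4 mutant 2 from B, both others from C). A tie of high globin to ID number or batch was not tested.

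**Figure D1:**
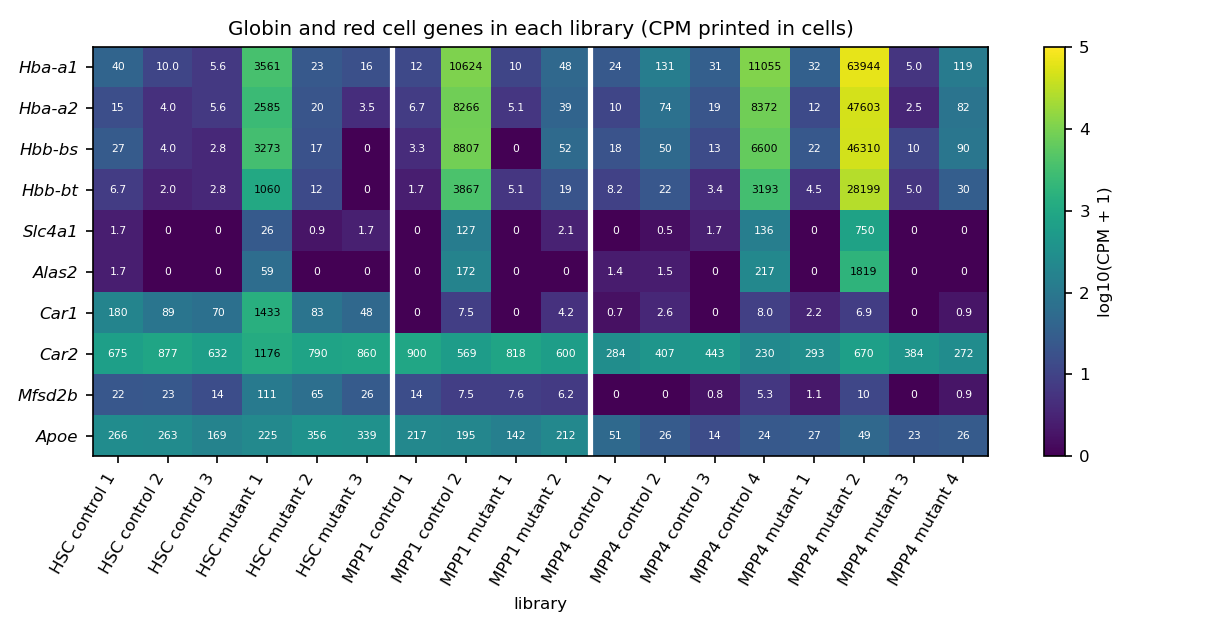
Level of each of the 10 genes (rows) in each of the 18 libraries (columns), coloured by log10(CPM + 1) with the CPM printed in the cell; white lines separate HSC, MPP1 and MPP4. The upper 6 rows are bright in HSC mutant 1, MPP1 control 2, MPP4 control 4 and MPP4 mutant 2, while Car1 is bright in HSC and most in HSC mutant 1.

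Slc4a1 and Alas2, both made late in red cell development, were detected almost only where globin was high. Slc4a1 had 31 counts in HSC mutant 1, 68 in MPP1 control 2, 51 in MPP4 control 4 and 433 in MPP4 mutant 2. The other 14 libraries had 0 to 2 counts, and 8 of them had 0, which allows up to 3 counts in each. Alas2 had 72, 92, 81 and 1050 counts in the same 4 libraries. Elsewhere it had 0 to 3 counts, with 11 of 14 libraries at 0. Relative to globin the 2 genes kept to a narrow range: Alas2 gave 5.67, 5.45, 7.41 and 9.78 counts per 1000 globin counts, and Slc4a1 gave 2.44, 4.03, 4.67 and 4.03. The values for MPP4 mutant 2 are upper limits, because its Hba-a1 count is capped.

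Car1 separated HSC mutant 1 from the other 3 globin-rich libraries. It gave 136.8 counts per 1000 globin counts there (95% exact Poisson interval 130.4 to 143.4), against 0.237 (0.0646 to 0.607) in MPP1 control 2, 0.275 in MPP4 control 4 and 0.0372 in MPP4 mutant 2. In counts, HSC mutant 1 had 1736 of Car1, and the other 3 had 4, 3 and 4. Car1 was also present in HSC libraries with hardly any globin, at 108, 89 and 25 counts in controls and 89 and 28 in HSC mutants 2 and 3. All 6 HSC libraries thus held Car1, from 48.5 to 180 CPM in 5 of them and at 1433 CPM in HSC mutant 1.

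**Figure D2:**
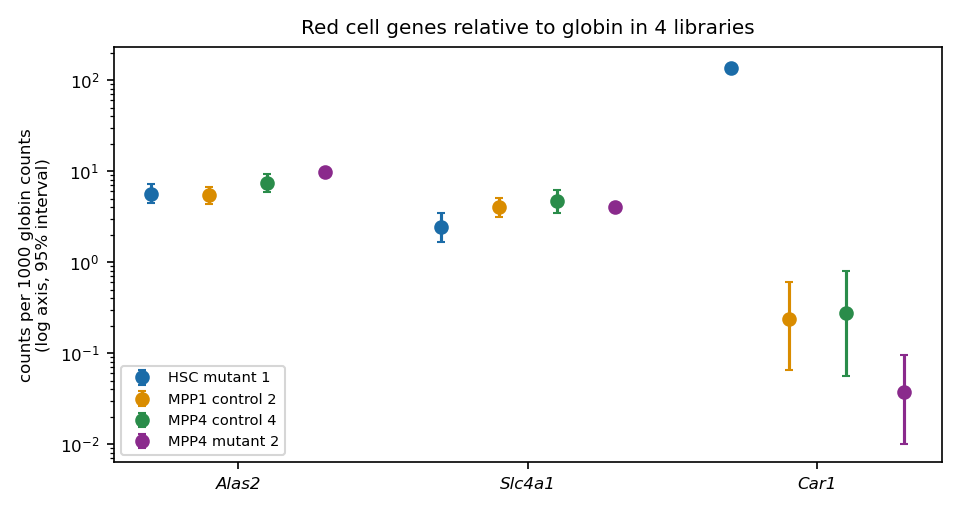
Alas2, Slc4a1 and Car1 counts per 1000 globin counts (log axis) in the 4 globin-rich libraries, with 95% exact Poisson intervals for the numerator. Alas2 and Slc4a1 lie between 2.44 and 9.78 in all 4 libraries, whereas Car1 is at 136.8 in HSC mutant 1 and below 0.3 in the other 3.

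Marker lists moved with these values. The 8-gene early erythroid list (Gata1, Klf1, Epor, Gfi1b, Tal1, Zfpm1, Cpox and Tfrc, each detected in every HSC library) summed to 1314 CPM in HSC mutant 1, above the 607 to 787 CPM of the other 5 HSC libraries. In MPP1 control 2 it was 552 CPM, in MPP4 control 4 it was 230 CPM and in MPP4 mutant 2 it was 478 CPM, against 357 to 498 CPM in the other MPP1 and 159 to 275 CPM in the other MPP4 libraries. Gata1, the master regulator of red cell development, stood at 216 CPM in HSC mutant 1 against 26.9 to 79.6 CPM in the other HSC libraries, and at 24.3 CPM (14 counts) in MPP4 mutant 2 against 0 to 8.02 CPM in the other MPP4 libraries. Klf1, the activator of adult beta-globin, stood at 210 CPM in HSC mutant 1 against 10.95 to 41.8 CPM, and at 27.7 CPM (16 counts) in MPP4 mutant 2 against 0 to 2.67 CPM. Epor, the erythropoietin receptor, stood at 75.1 CPM in HSC mutant 1 against 10.95 to 35.1 CPM, and at 15.6 CPM (9 counts) in MPP4 mutant 2 against 0 to 1.69 CPM. Gata1, Klf1, Epor and the list sum were thus raised over their own population in HSC mutant 1 and in MPP4 mutant 2. So was Tfrc, at 221 CPM in HSC mutant 1 against 31.8 to 132.5 CPM in the other HSC libraries. In MPP4 mutant 2 Tfrc stood at 222 CPM, the largest part of the list sum. The other MPP4 libraries had 36.9 to 100.3 CPM of Tfrc. Some other genes of the list were not raised. In HSC mutant 1, Tal1 (163 CPM) lay below the other HSC libraries and Zfpm1 (115 CPM) within their range. In MPP4 mutant 2, Tal1 (86.6 CPM), Zfpm1 (32.9 CPM) and Gfi1b (12.1 CPM) lay within the range of the other MPP4 libraries. MPP4 control 4 had 3, 1 and 0 counts of Gata1, Klf1 and Epor, and MPP1 control 2 had 8, 4 and 7.

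The red cell precursor list and the iron gene Slc25a37 were highest in MPP4 mutant 2. Slc25a37, the mitochondrial iron importer, stood at 1466 CPM in MPP4 mutant 2, 254 CPM in MPP4 control 4 and 187 CPM in MPP1 control 2, above the 57.1 to 129.7 CPM of the other 15 libraries, HSC mutant 1 included. The red cell precursor list (9 of its 10 genes in the tables) summed to 556 CPM in HSC mutant 1. The other HSC libraries had 55.4 to 165 CPM. MPP4 mutant 2 had 714 CPM and MPP4 control 4 had 174 CPM, against 7.52 to 31.3 CPM in the other MPP4 libraries. In MPP1 control 2 the list stood at 109 CPM, against 39.1 to 50.8 CPM in the other MPP1 libraries.

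Neutrophil transcripts were high in the same 4 libraries as globin. The 10-gene neutrophil list (S100a8, S100a9, Ngp, Camp, Ltf, Lcn2, Retnlg, Mmp8, Mmp9 and Cxcr2) had all 10 genes detected in each of them and summed to 1291 CPM in HSC mutant 1, 8195 CPM in MPP1 control 2, 3556 CPM in MPP4 control 4 and 31526 CPM in MPP4 mutant 2. In the other 14 libraries it ran from 5.64 to 95.3 CPM. S100a9, a calcium-binding protein abundant in neutrophils, had 495, 1555, 517 and 6639 counts in the 4 libraries and at most 23 elsewhere. The 12-gene macrophage list showed no such split, at 74.8 to 114 CPM in the 4 libraries and 26.2 to 101 CPM in the others. The part that other cells sorted along with the progenitors had in the globin, Slc4a1 and Alas2 values was not tested.

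**Figure D3:**
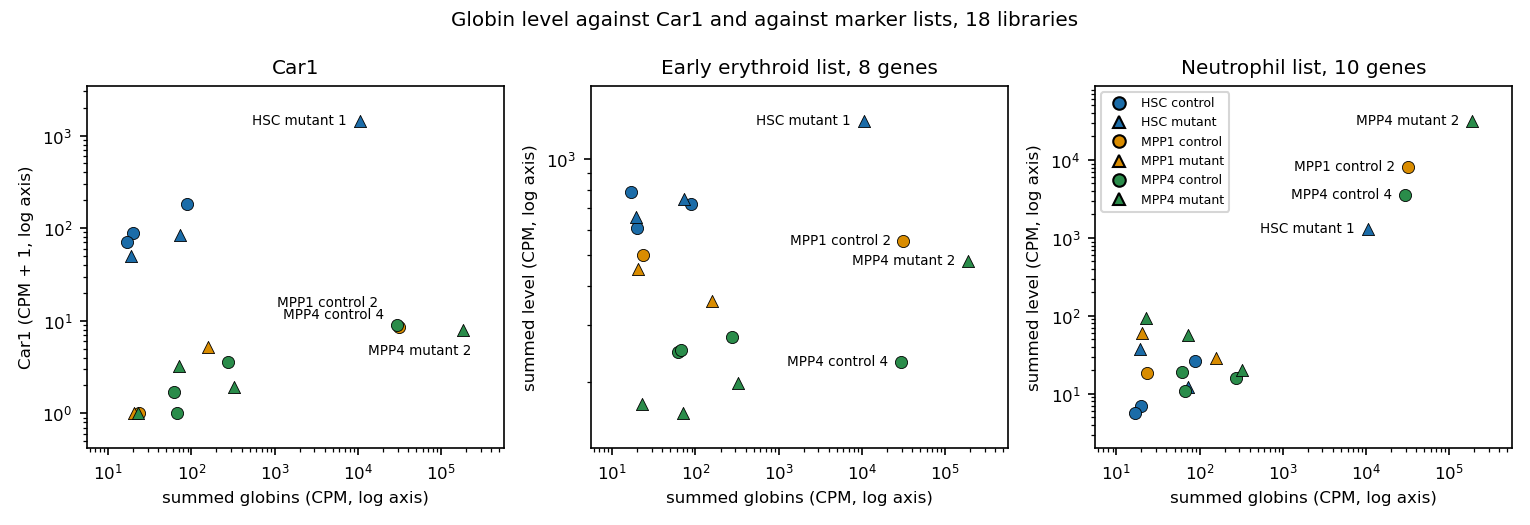
Summed globin level (x axis, CPM, log) against Car1 (CPM + 1, log), the early erythroid list and the neutrophil list (summed CPM, log) for 18 libraries; colour is population, circles are controls and triangles mutants, and the 4 globin-rich libraries are named. Neutrophil transcripts are high in all 4, while the highest Car1 (1433 CPM) and early erythroid (1314 CPM) values are those of HSC mutant 1; MPP4 mutant 2 is the highest MPP4 library for the early erythroid list, at 478 CPM.

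Apoe, Car1, Car2 and Mfsd2b were detected in every HSC library, globin-rich or not, and were lowest in MPP4 or nearly absent from it. Globin-rich libraries still held the highest Car1 level of each population and the highest Mfsd2b and Car2 levels of HSC and MPP4. Apoe had 159, 264 and 60 counts in HSC controls and 273, 380 and 196 in HSC mutants, which is 233 ± 55 and 307 ± 71 CPM (SD, n = 3 each). MPP1 was close to that, at 206 ± 16 CPM in controls and 177 ± 49 CPM in mutants (n = 2 each). MPP4 controls had 75, 50, 16 and 9 counts and MPP4 mutants 24, 28, 9 and 29, or 28.6 ± 15.9 and 31.1 ± 11.8 CPM (n = 4 each). Every HSC and MPP1 library was above every MPP4 library.

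Mfsd2b, the sphingosine-1-phosphate exporter, had 13, 23 and 5 counts in HSC controls and 134, 69 and 15 in HSC mutants (19.6 ± 4.8 and 67.1 ± 42.4 CPM). It had 17 and 4 counts in MPP1 controls, 3 and 3 in MPP1 mutants, 0, 0, 1 and 2 in MPP4 controls and 1, 6, 0 and 1 in MPP4 mutants. HSC was highest, MPP1 lay at 6.23 to 14.1 CPM and MPP4 at 0 to 10.4 CPM, the last value coming from MPP4 mutant 2. MPP1 and MPP4 overlapped only through that library.

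Car1 was at 113 ± 59 CPM in HSC controls and 522 ± 790 CPM in HSC mutants, the large spread coming from HSC mutant 1. It was nearly absent from MPP1 (0, 4, 0 and 2 counts) and MPP4 (1, 5, 0 and 3 in controls, 2, 4, 0 and 1 in mutants). The order of MPP1 and MPP4 cannot be read from so few counts.

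Car2 was the most even gene of the set. Counts were 404, 881 and 224 in HSC controls, 1424, 843 and 497 in HSC mutants, 1082 and 304 in MPP1 controls, 322 and 289 in MPP1 mutants, 418, 792, 523 and 86 in MPP4 controls and 262, 387, 153 and 298 in MPP4 mutants. In CPM this was 728 ± 131 and 942 ± 205 in HSC, 734 ± 234 and 709 ± 155 in MPP1, and 341 ± 100 and 405 ± 183 in MPP4 (controls and mutants). HSC and MPP1 overlapped, and MPP4 overlapped HSC only through MPP4 mutant 2 at 670 CPM.

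**Figure D4:**
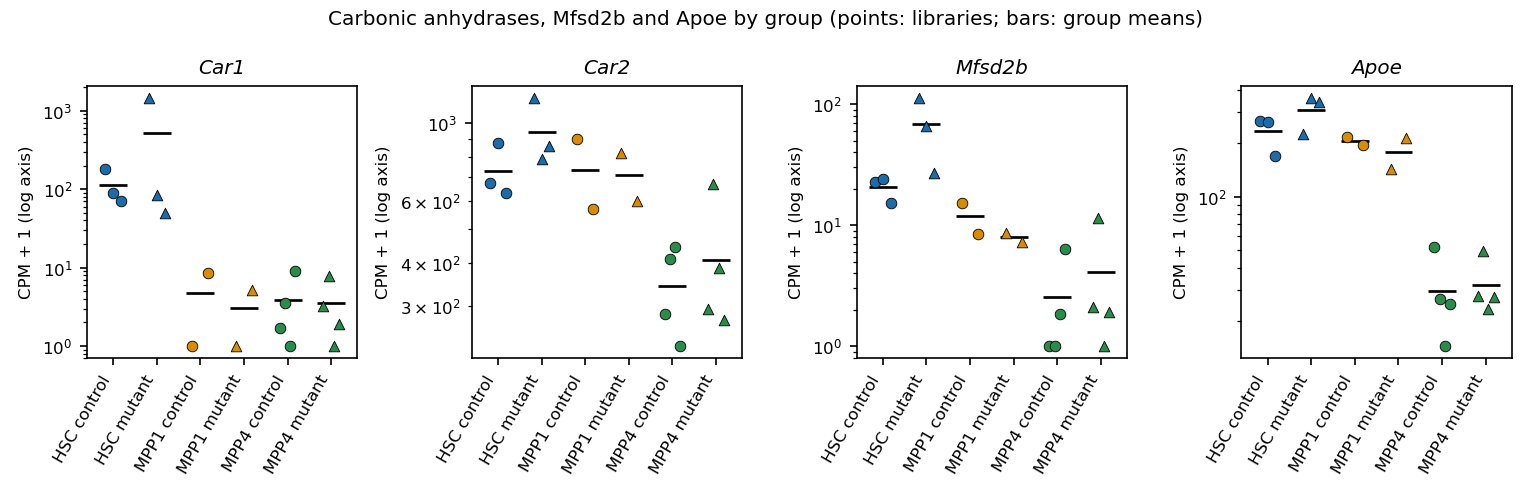
Car1, Car2, Mfsd2b and Apoe in the 6 groups (CPM + 1, log axes that differ between panels); each point is a library and each bar the mean of CPM + 1 in its group. HSC is highest for Car1 and Mfsd2b, HSC and MPP1 share a level for Car2 and Apoe, and MPP4 is lowest for Apoe at 13.5 to 51.0 CPM.

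MPP4 was compared with HSC within ID numbers, in an edgeR quasi-likelihood model over all 18 libraries. MPP4 control 2 and MPP4 mutant 2 have no HSC library of their number and so carry no weight in these differences. In controls, 5 of the 10 genes passed the threshold (adjusted p under 0.05), 4 lower and 1 higher in MPP4, where 9.82% of all 10613 genes tested passed, 5.82% higher and 4% lower. Apoe was lower by 3.02 on the log2 scale (log2 difference -3.02, SE 0.28, adjusted p = 2.76e-08 by edgeR), lower in 3 of 3 ID numbers. Car2 was lower with a log2 difference of -1.06 (SE 0.19, adjusted p = 0.0002 by edgeR).

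Car1 and Mfsd2b rested on very few MPP4 counts. Car1 had a fitted log2 difference of -6.40 (SE 0.81, adjusted p = 0.00099 by edgeR). Summed over the 3 ID numbers it had 222 counts in HSC and 4 in MPP4, a ratio of levels of 85.8 with a 95% counting interval of 33.05 to 318. Mfsd2b had a fitted log2 difference of -4.11 (SE 0.71, adjusted p = 8.59e-05 by edgeR), from 41 counts in HSC and 3 in MPP4, a ratio of 21.1 (6.74 to 106.7).

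Slc4a1 was the gene that passed as higher in MPP4 controls, with a log2 difference of 5.85 (SE 1.04, adjusted p = 0.0017 by edgeR). Of its 53 MPP4 counts 51 came from MPP4 control 4. Without the ID number of that library the log2 difference was 0.33 (adjusted p = 0.963 by edgeR), and without the number of HSC control 2 it was 5.91 (adjusted p = 0.0616 by edgeR). The globins themselves did not pass, at log2 differences of 2.29 to 6.25 with SEs of 2.95 to 4.04, nor did Alas2 at 6.46 (SE 1.47, adjusted p = 0.16 by edgeR).

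In mutants, 5 of 10 genes passed, all lower in MPP4, where 12.7% of all genes tested passed, 7.04% higher and 5.66% lower. Apoe had a log2 difference of -3.53 (SE 0.28, adjusted p = 8.55e-10 by edgeR) and Car2 one of -1.54 (SE 0.19, adjusted p = 3.55e-07 by edgeR). Mfsd2b had -6.22 (SE 0.64, adjusted p = 6.31e-09 by edgeR), from 218 counts in HSC and 2 in MPP4, a ratio of 91.1 (24.9 to 757). Car1 had -8.61 (SE 0.86, adjusted p = 0.000169 by edgeR), from 1853 and 3 counts, a ratio of 516 (176 to 2505). Leaving out the 4 globin-rich libraries kept all 4 calls in both genotypes: in mutants Car1 was then at -6.55, Mfsd2b at -6.03, Apoe at -3.81 and Car2 at -1.33.

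Slc4a1 also passed as lower in mutant MPP4 (adjusted p = 0.0135 by edgeR). It had 33 counts in HSC mutants and none in the 3 MPP4 libraries of the same numbers, so it was at least 9.19-fold higher in HSC against a floor of 3 counts over the group. Of the 33 counts 31 were from HSC mutant 1. Without its ID number the call was lost (log2 difference -3.19, adjusted p = 0.549 by edgeR), as it was without the number of HSC control 2 (-6.02, adjusted p = 0.0893 by edgeR). With the globin-rich libraries left out, 2 globins passed in the opposite direction to the full fit: Hba-a2 at 1.86 (adjusted p = 0.0016 by edgeR) and Hbb-bs at 2.53 (adjusted p = 1.57e-05 by edgeR), higher in MPP4. With all libraries, the same differences were -1.78 and -0.86 and did not pass.

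No gene of the 10 passed between MPP1 and HSC by edgeR or by DESeq2 in either genotype, where 0.236% of all genes passed in controls and 0.0471% in mutants; at an unadjusted p under 0.05 there were 3 in controls and 3 in mutants. Car1 had 114 counts in control HSC and 4 in MPP1 of the same numbers, a ratio of 36.4 (95% counting interval 13.8 to 136), with a log2 difference of -5.09 (SE 0.94, adjusted p = 0.107 by edgeR). In mutants it had 117 and 2 counts, a ratio of 31.1 (8.43 to 260) and a log2 difference of -4.71 (SE 1.18, adjusted p = 0.398 by edgeR). Without the globin-rich libraries Car1 passed in mutants (-4.69). It passed in controls too, but there MPP1 was 1 library with 0 Car1 counts, assumed to vary like the other groups, and its fitted size is no bound. In mutants Mfsd2b (-2.57, adjusted p = 0.0167 by edgeR) and Apoe (-0.84, adjusted p = 0.0351 by edgeR) passed too. With all libraries the mutant differences of Car1, Mfsd2b and Apoe were already -4.71, -2.57 and -0.76. The globin-rich mutants, HSC mutant 1 and MPP4 mutant 2, have no MPP1 library of their number. Car2 differed by -0.13 (SE 0.22) in controls and -0.21 (SE 0.22) in mutants.

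**Figure D5:**
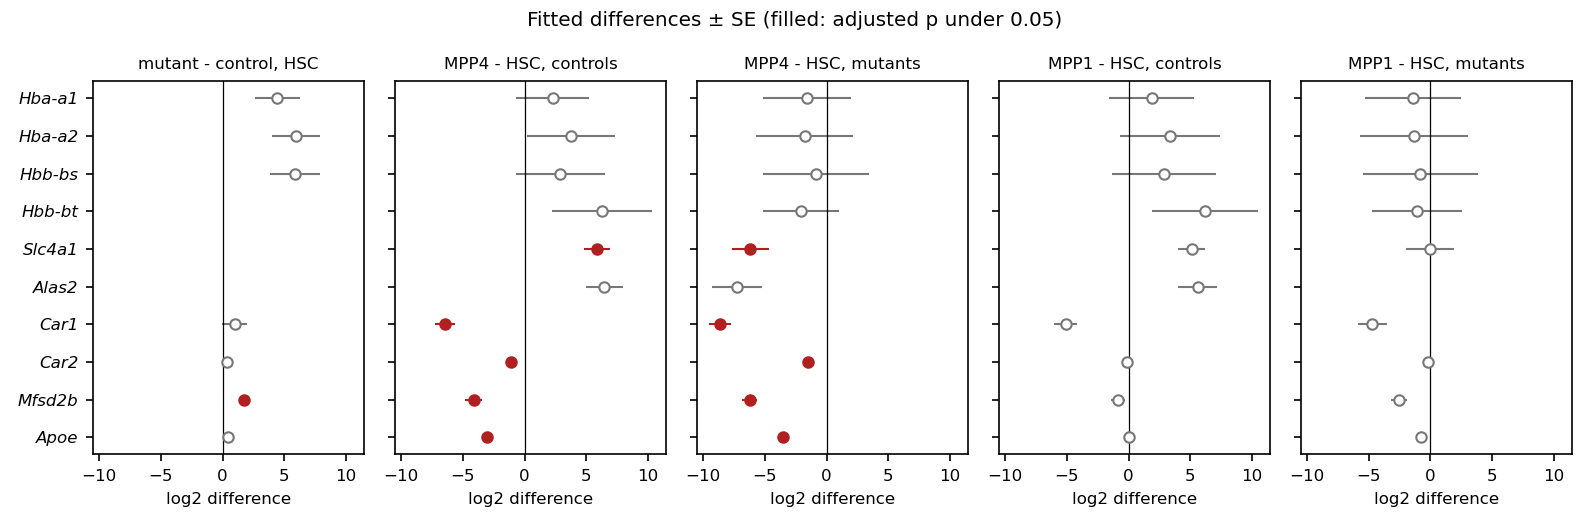
Fitted log2 differences (points) with their SE (bars) for the 10 genes in 5 comparisons, filled where the adjusted p is under 0.05; genes that did not pass the filter, or whose SE could not be estimated, are left out. Car1, Car2, Mfsd2b and Apoe are filled on the lower side in MPP4 against HSC in both genotypes, and the globins have bars several log2 units wide.

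The effect of the Dnmt1 mutation was tested within each population. In HSC, 7 of the 10 genes passed the filter on low counts and 1 passed the test, where 0.241% of 9147 genes passed. That gene was Mfsd2b, higher in mutants by 1.70 on the log2 scale (SE 0.37, adjusted p = 0.0343 by edgeR). The 3 mutants (25.97 to 110.6 CPM) did not overlap the 3 controls (14.1 to 22.9 CPM); 3.98% of all genes tested had mutants above controls without overlap. Within batch A the mutant was higher by 2.38 in log2 CPM, and within batch C by 1.11. The highest mutant was HSC mutant 1, the library with raised globins, Gata1 and Klf1. Without it the call was lost (log2 difference 1.25, adjusted p = 0.93 by edgeR). The 12-gene megakaryocyte and platelet list stood at 192 CPM in HSC mutant 1, 971 CPM in HSC mutant 2 and 670 CPM in HSC mutant 3. In HSC controls it stood at 354 to 650 CPM. What either lineage contributed to the Mfsd2b difference was not tested.

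The Mfsd2b call was also lost without HSC mutant 2 (1.45, adjusted p = 0.425), without HSC control 1 (1.25, adjusted p = 0.79), without HSC control 3 (1.67, adjusted p = 0.0703) and with DESeq2 (1.69, adjusted p = 0.173). In all it was lost in 8 of 16 alternatives, with the same direction in each of the 16. Gata1, which is not among the 10 genes, had 35, 27 and 10 counts in HSC controls and 262, 85 and 17 in HSC mutants, with a log2 difference of 1.46 (SE 0.33, adjusted p = 0.0513 by edgeR).

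None of the other 6 tested genes passed in HSC. Apoe differed by 0.40 (SE 0.24), Car2 by 0.39 (SE 0.25) and Car1 by 0.97 (SE 1.02). Within batch A the Car1 difference was 3.13 in log2 CPM and within batch C it was -0.29, so its sign followed HSC mutant 1. Hba-a1, Hba-a2 and Hbb-bs had fitted differences of 4.43 (SE 1.83), 5.93 (SE 1.94) and 5.87 (SE 1.99), with adjusted p from 0.4985 to 0.558 by edgeR.

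In MPP1, none of 5 tested genes passed by edgeR or DESeq2, and none had an unadjusted p under 0.05, where 0.225% of 8004 genes passed. Car2 differed by 0.10 (SE 0.29) and Apoe by -0.08 (SE 0.25), while the 3 tested globins had differences of -7.42 to -7.29 with SEs of 4.44 to 4.91 and 1 high library, MPP1 control 2. In MPP4, none of 6 tested genes passed by edgeR or DESeq2 and none had an unadjusted p under 0.05, where 0.0852% of 9392 genes passed. Car2 differed by 0.28 (SE 0.27) and Apoe by 0.36 (SE 0.39). The 4 globins had fitted differences of -3.69 to -2.63 with SEs of 6.17 to 7.01, although mean CPM was higher in mutants (Hba-a1 at 16025 against 2810). That fit has batch as a term, and without it their differences were 2.21 to 2.85.

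The mutant effect was compared between MPP4 and HSC as an interaction. Of the 10 genes, Slc4a1 passed (fitted log2 difference -12.004, which is no bound, SE 1.78, adjusted p = 0.032 by edgeR), where 0.0283% of all genes passed. The libraries behind it are MPP4 control 4 with 51 counts and HSC mutant 1 with 31, against 0 to 2 in all other libraries that enter the difference. The call was lost without the ID number of MPP4 control 4 (-6.66, adjusted p = 1 by edgeR) and without that of HSC mutant 1 (-9.05, adjusted p = 0.857 by edgeR), and in 9 of 14 alternatives in all, and without the globin-rich libraries the gene had too few counts to be tested. Car1, Car2, Mfsd2b and Apoe had interaction differences of -2.20 (SE 2.13), -0.48 (SE 0.27), -2.11 (SE 1.47) and -0.50 (SE 0.41) and did not pass.

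In the authors' deposited tables, all 10 genes had positive log2 fold changes in HSC, from 0.11 to 1.23, and the largest was Mfsd2b with an adjusted p of 0.492. Whether the fold changes in the authors' deposited tables were shrunken towards 0 is not given in the sources used here, so their sizes cannot be set against the edgeR differences. The authors' deposited tables gave 10 of 10 negative values in MPP1, from -0.23 to -0.06, and 10 of 10 positive values in MPP4, from 0.07 to 0.32. For HSC the authors' deposited table gave no adjusted p for 6 of the genes (the 4 globins, Alas2 and Car1), and for MPP4 none for 6 (the 4 globins, Alas2 and Slc4a1).

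Other genes of these pathways were followed by lists. Their counts stand beside the shares of all genes tested between MPP4 and HSC, which were 4% lower and 5.82% higher in controls and 5.66% lower and 7.04% higher in mutants. Of the 17 erythroid regulators, 10 were lower and none higher in MPP4 than HSC among controls, and 10 were lower and 1 higher among mutants. Without the globin-rich libraries 11 were lower in controls and 10 in mutants, and none was higher. Klf1 had 50 counts in control HSC and 2 in MPP4, a ratio of 38.7 (95% counting interval 10.16 to 328), with a log2 difference of -5.14 (SE 0.67, adjusted p = 1.21e-06 by edgeR). Tal1, a partner of Gata1, had a log2 difference of -1.45 (SE 0.20, adjusted p = 2.38e-06 by edgeR) in controls and -2.42 (SE 0.21, adjusted p = 2.12e-10 by edgeR) in mutants. The median over the list was -1.45 in controls and -1.56 in mutants, where the median of all genes tested was 0.00 and -0.05. Between MPP1 and HSC, 1 regulator passed, Gata1 in mutants, with 102 counts in HSC and 3 in MPP1 and a log2 difference of -3.80 (SE 0.75, adjusted p = 0.0457 by edgeR).

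Genes of haem synthesis and the red cell skeleton gave mixed counts between MPP4 and HSC. Of 16 haem and iron genes, 1 was higher and none lower in control MPP4, and none was higher and 5 lower in mutant MPP4. In controls 1 of 16 is near the 5.82% of all genes called higher. That gene was the iron importer Slc25a37 (log2 difference 0.70, SE 0.23, adjusted p = 0.0489 by edgeR), which was highest among these libraries in the globin- and neutrophil-rich MPP4 control 4. Without the globin-rich libraries its difference was 0.28 (adjusted p = 0.574 by edgeR), and the haem and iron list had none higher and 1 lower in controls and 2 lower in mutants. With all libraries, the mutant genes included Cpox, coproporphyrinogen oxidase (-1.65, SE 0.32). Of 19 tested membrane and skeleton genes, 2 were lower and 1 higher in controls, and 10 were lower and 1 higher in mutants, among them the protein 4.1 gene Epb41 (-0.85, SE 0.23 in controls and -1.82, SE 0.24 in mutants) and Icam4, a red cell adhesion molecule (-1.79, SE 0.58 and -4.03, SE 0.64). Of 13 tested late red cell genes, 2 were lower in controls and 4 in mutants, led by Blvrb, biliverdin reductase B (-1.42, SE 0.40 and -3.02, SE 0.41, or -1.84 and -1.97 without the globin-rich libraries). Without those libraries 6 of 17 membrane and skeleton genes were lower in controls and 7 in mutants, with 1 higher in each, and 2 and 4 of 11 late red cell genes were lower. HSC mutant 1 is 1 of the 3 mutant HSC libraries in these counts, and its red cell membrane list stood at 1449 CPM against 414 and 514 CPM in HSC mutants 3 and 2.

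Further lists bear on Mfsd2b and Apoe. Of 9 tested sphingosine-1-phosphate genes, 3 were lower in MPP4 than HSC in controls, and 3 were lower and 1 higher in mutants, against 4% of all genes lower in controls and 5.66% lower and 7.04% higher in mutants. Sphk1, a kinase that makes sphingosine-1-phosphate, had 16 counts in control HSC and 132 in mutant HSC but 0 in both MPP4 sets, so it was at least 8.25-fold and 36.8-fold higher in HSC against a floor of 3 counts. Of the 132 counts, 5 were in HSC mutant 2, none in HSC mutant 3 and the rest in HSC mutant 1, and without the globin-rich libraries the mutant call was lost (adjusted p = 0.311 by edgeR). Spns2, an exporter, was lower by -0.83 (SE 0.19) and -0.81 (SE 0.19). Of 8 tested apolipoprotein E partners, 1 was higher and 1 lower in MPP4 controls and 1 was higher in MPP4 mutants, where 5.82% and 7.04% of all genes were higher. The receptor Vldlr was the higher one in both genotypes (1.99, SE 0.36 and 1.33, SE 0.34). None of the listed genes passed between genotypes in any population by edgeR; at an unadjusted p under 0.05 the 8 lists held up to 4 genes each in HSC. Of the 14 other carbonic anhydrases, 2 passed the filter between populations and none passed the test.

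Genes with the most similar patterns over the 18 libraries were ranked by Pearson r of log2 CPM, as a description in which libraries share ID numbers and depth. Hba-a1 was closest to Hba-a2 (r = 0.996), Hbb-bt (0.984) and Hbb-bs (0.982), and without the 4 globin-rich libraries the same r values were 0.941, 0.753 and 0.821. Slc4a1 was closest to Alas2 (0.988), then to Mmp9 (0.986) and Ly6g (0.986), both neutrophil genes; without the 4 libraries these fell to 0.137, 0.313 and 0.313. Alas2 was closest to Slc4a1, then to Ly6g and Mmp9 (0.986 each), and without the 4 libraries its r with both neutrophil genes was -0.060. Car1 was closest to Atp1b2 (0.936), Klf1 (0.923) and Trib2 (0.907), and the value for Klf1 was 0.954 without the 4 libraries. Mfsd2b was closest to Gata1 (0.9501), Ces2g (0.937) and Tnfaip2 (0.909), with 0.936 for Gata1 without them. Car2 was closest to Nt5c3 (0.898), Aldh1a1 (0.861) and Nfe2 (0.854). Apoe was closest to Bgn (0.932), Myh10 (0.926) and the stem cell marker Slamf1 (0.924), and within populations those values were 0.07, 0.64 and 0.41.

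The 10 genes fell into 2 sets by their r with Hba-a1: the other globins, Slc4a1 and Alas2 had 0.956 or more, and Car1, Car2, Mfsd2b and Apoe had 0.178, 0.078, 0.186 and -0.0966. Without the 4 globin-rich libraries r with Hba-a1 was 0.753 to 0.941 for the other globins but 0.306 for Slc4a1 and 0.429 for Alas2, so the place of these 2 genes beside the globins rests on those libraries. Among the last 4 genes, r ran from 0.615 (Car1 with Car2) to 0.852 (Car2 with Mfsd2b).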

How the data were processed

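CEL-Seq2 profiles of 18 sorted progenitor libraries were analysed. Per the submitters' processing notes, reads were placed on mm10, and R 3.4.0 and DESeq2 were used. The aligner is not named in the labels or notes used here. The deposited gene tables hold estimated counts of transcripts: all 1557 values from 1000 up to the ceiling fall on the grid given by UMIs of 6 bases corrected for collisions. The authors' deposited comparison tables give, per the file headers, a mean signal over libraries, a log2 fold change with its standard error, a test score and p-values. How the authors set up those models is not stated in these sources.

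The 10 genes and all gene lists were chosen with earlier results of these data known. Estimated counts were tested as deposited with edgeR 4.0.16 (TMM, default filter with a minimum count of 10, robust quasi-likelihood F test, Benjamini-Hochberg over all genes, threshold 0.05) in R 4.3.3 with limma 3.58.1. Rounding was applied for DESeq2. Genotype was fitted per population with batch as a term (MPP1: genotype alone), and populations were compared in 1 fit of the 18 libraries that blocks on ID number. Scripts were tested on simulated data. CPM uses library totals. The genes named beside the 10 were up to 2 called genes of each list with the smallest adjusted p and the 3 with the highest Pearson r; single marker genes were picked after their values were seen, and some listed genes are not reported here. DESeq2 1.42.0, other filters, scalings, batch treatments, the replicate block and leaving out libraries were the alternatives, and leaving out the globin-rich libraries was added after seeing the data. In HSC, the deviations of libraries of the same replicate number had r = 0.494, 0.20 and 0.224. The pair at 0.494 holds the HSC libraries of batch A. HSC control 2 and HSC mutant 3, of different numbers, had r = 0.237, so the numbers are not shown to be pairs.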

Additional observations from a re-analysis of the deposited data

Results flagged for a closer look

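Dixon's ratio was taken for 22 values in the groups of 4 libraries. In 17 of them the highest or lowest library lay apart from the others by more than its 95% critical value. That value marks about 1 in 20 only where values are normal and independent, so 17 of 22 cannot be set against that share. Slc4a1 and Alas2 in MPP4 mutants had 0 counts in 3 of 4 libraries, which fixes the ratio at 1. MPP4 control 4 stood apart for Hba-a1 (11055 CPM), Hba-a2 (8372 CPM), Hbb-bs (6599.6 CPM), Hbb-bt (3193 CPM), the sum of these 4 globins (29219.5 CPM), Slc4a1 (136 CPM), Alas2 (217 CPM) and Mfsd2b (5.35 CPM, from 2 counts). MPP4 mutant 2 stood apart for Hba-a1 (63944 CPM), Hba-a2 (47603 CPM), Hbb-bs (46310.5 CPM), Hbb-bt (28199 CPM), the globin sum (186056 CPM), Slc4a1 (750.2 CPM), Alas2 (1819 CPM), Mfsd2b (10.4 CPM, from 6 counts) and Apoe (48.5 CPM). The values share 2 libraries and are not independent of each other.

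Slc4a1 passed the test of the mutant effect in MPP4 against that in HSC, with a fitted interaction of -12.004 (log2, SE 1.78, adjusted p = 0.032 by edgeR), but lost the call in 9 of 14 alternatives and could not be tested without the globin-rich libraries. It rests on MPP4 control 4 and HSC mutant 1, and the fitted size is no bound, since MPP4 mutants of the numbers compared had 0 counts.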

How the results depend on the processing

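The lower levels of Car1, Car2, Mfsd2b and Apoe in MPP4 than in HSC held their direction and call in all 15 alternatives in both genotypes. For counts of the 10 genes called, DESeq2 gave 0 for HSC genotype and 0 for the interaction; testing without the low-count filter gave 3 for HSC genotype, 3 and 2 for MPP1 against HSC in controls and mutants, and 2 for the interaction; a spread shared over 18 libraries, leaving out the batch term, and batch C alone each gave 0 for HSC genotype. Batch C alone gave 3 for MPP1 against HSC in controls and 0 for the interaction, leaving out the globin-rich libraries gave 1, 3 and 0 for MPP1 against HSC in controls, in mutants and the interaction, and batch in place of the ID number gave 0 for the interaction. With the replicate block, MPP1 genotype gave 2 calls against 0, HSC stayed at 1 call (Mfsd2b 1.78, adjusted p = 0.00224 by edgeR), and Hbb-bs in MPP4 genotype was 0.28. Same-number correlations did not pair the libraries in HSC or in MPP4 (0.328, -0.022, 0.342 and -0.017 in MPP4), and MPP1 has only 2 pairs (0.175 each).

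Signs of single genes that turned were mostly globins, and the cause was not tested. Under DESeq2 these were Hbb-bs 2.07 and Hbb-bt 0.35 (MPP4 against HSC, mutants), Alas2 0.20, Hbb-bs 0.42 and Hbb-bt 0.79 (MPP1 against HSC, mutants) and Hbb-bs 0.29 (interaction). Without the batch term MPP4 genotype gave Hba-a1 2.23, Hba-a2 2.21, Hbb-bs 2.52 and Hbb-bt 2.85. In batch C alone they were Car1 -0.26 (HSC genotype), Car2 -0.28 (MPP4 genotype), Apoe -0.090 (MPP1 against HSC, controls), Hba-a1 1.32, Hba-a2 1.73, Hbb-bs 2.62 and Hbb-bt 1.45 (MPP4 against HSC, mutants) and Hba-a1 0.55, Hba-a2 1.08, Hbb-bs 1.68, Hbb-bt 1.07 and Slc4a1 0.061 (MPP1 against HSC, mutants). Without the globin-rich libraries they were Car2 -0.060, Hba-a1 0.99, Hba-a2 1.08 and Hbb-bs 1.46 (MPP4 genotype), Apoe -0.073, Hba-a1 -0.75, Hba-a2 -0.43, Hbb-bs -1.31 and Hbb-bt -0.51 (MPP1 against HSC, controls), Hba-a1 1.71, Hba-a2 1.86, Hbb-bs 2.53 and Hbb-bt 1.47 (MPP4 against HSC, mutants), Hba-a1 0.76, Hba-a2 1.10, Hbb-bs 1.71 and Hbb-bt 1.07 (MPP1 against HSC, mutants) and Car1 1.62, Hba-a1 1.45, Hba-a2 1.11, Hbb-bs 2.40 and Hbb-bt 1.10 (interaction). With a batch term replacing the ID block they were Apoe -0.076 and Car2 0.00061 (MPP1 against HSC, controls) and Car1 0.061 and Mfsd2b 0.71 (interaction).

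Leaving out 1 library or ID number at a time, the counts called ran from 0 to 2 for HSC genotype, 0 to 5 for MPP1 genotype, 0 to 2 for MPP1 against HSC in each genotype and 0 to 2 for the interaction. Log2 differences then ran from -0.26 to 1.55 for Car1 (HSC genotype); in MPP1 genotype from -0.36 to 0.15 for Apoe, -0.17 to 0.37 for Car2, -8.91 to 1.56 for Hba-a1, -9.52 to 1.97 for Hba-a2 and -14.68 to 3.15 for Hbb-bs; and in MPP4 genotype from -0.11 to 0.79 for Apoe, -0.060 to 0.53 for Car2, -5.62 to 2.29 for Hba-a1, -5.74 to 2.55 for Hba-a2, -5.19 to 3.07 for Hbb-bs and -6.20 to 3.82 for Hbb-bt. For MPP4 against HSC they ran from -0.35 to 9.14 for Alas2 in controls, and in mutants from -5.88 to 1.15 for Hba-a1, -7.13 to 1.65 for Hba-a2, -5.27 to 2.73 for Hbb-bs and -6.52 to 1.51 for Hbb-bt. For MPP1 against HSC in controls they ran from -0.18 to 8.201 for Alas2, -0.085 to 0.21 for Apoe, -0.70 to 5.16 for Hba-a1, -0.41 to 7.87 for Hba-a2, -1.26 to 8.15 for Hbb-bs, -0.51 to 8.34 for Hbb-bt and -2.73 to 7.74 for Slc4a1, and in mutants from -2.43 to 0.45 for Hba-a1, -2.58 to 1.06 for Hba-a2, -6.53 to 1.66 for Hbb-bs, -2.33 to 1.15 for Hbb-bt and -3.71 to 0.99 for Slc4a1. The interaction of Apoe ran from -1.09 to 0.0072. Some alternatives gave no value, where the stricter filter or the libraries left out removed a globin, Slc4a1, Alas2 or (MPP4 genotype) Apoe from the test. Depth limits Slc4a1, Alas2 and, outside HSC, Car1 and Mfsd2b, which had single-digit counts in most libraries.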
